A study of Mus musculus with 10 samples.

Results

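Interferon-stimulated genes were examined in myeloid cells of mice bearing MC17-51 fibrosarcomas, a transplanted mouse tumor cell line, at day 15 after implantation. The set was fixed by name as 42 genes, all of which were found among the 55421 genes of the count table. Shp2f/f mice have loxP sites in Ptpn11, the gene of the tyrosine phosphatase SHP-2, and no Cre. Shp2f/fLysMcre mice have the same floxed gene together with Cre recombinase expressed from the Lyz2 locus, which is active in neutrophils, monocytes and macrophages and not only in the purified cells. The study obtained polymorphonuclear myeloid-derived suppressor cells (MDSC) from the spleen with magnetic beads (2 libraries of each genotype) and tumor-associated macrophages (TAM) from the tumor by sorting CD45+CD11b+F4/80+Ly6G- cells (3 libraries of each genotype). Both cell types came from the same mice, but the labels do not tie libraries to mice, so all 10 libraries were treated as independent, and nothing in the labels says whether a library was made from 1 animal or several. P-values therefore measure the spread between these libraries only.

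Interferons are secreted by cells that sense nucleic acids or by activated lymphocytes. Type I interferons (interferon-α and interferon-β) signal through IFNAR1 and IFNAR2, and the kinases JAK1 and TYK2 then activate a complex containing STAT2 and IRF9 that binds the interferon-stimulated response element (ISRE). The type II interferon, interferon-γ, signals through IFNGR1 and IFNGR2 to genes that carry the gamma-activated site (GAS). The Ifit, Oas and Mx families are classical targets of the type I response, and the guanylate-binding proteins (Gbp) and immunity-related GTPases (Irg) are classical targets of the type II response, although type I interferon also induces many of them.

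The 42 genes were placed in 6 classes. The type I targets were 11 genes of the Ifit, Oas and Mx families, and the type II GTPases were 7 genes, Gbp2, Gbp3, Gbp5, Gbp7, Igtp, Irgm1 and Ifi47. The ISG15 system held 3 genes, the RNA and DNA sensors 6, the transcription factors Irf7, Irf9 and Stat2 made 3, and 12 other antiviral effectors completed the set. Many members are neighbors in the genome (GRCm38). The 4 Ifit genes lie in order on chromosome 19, from the start of Ifit2 at 34550694 to the end of Ifit1 at 34650009. The 4 Gbp genes lie on chromosome 3 between 142493978 and 142638008, the 5 Oas and Oasl genes on chromosome 5, Irgm1, Ifi47 and Igtp on chromosome 11, and Rsad2 and Cmpk2 side by side on chromosome 12 between 26442746 and 26479837.

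Promoter sequences of 33 of the 42 members were listed by RefSeq on GRCm38.p6. These windows run from 250 bases before to 50 bases after the transcript start. The ISRE core, searched as GAAANNGAAA on both strands, was present in 20 of the 33 genes (60.61%), against 3.99% of the 27025 genes with a listed promoter. The GAS core, searched as TTCNNNGAA, which reads the same on both strands, was present in 10 of 33 (30.3%), against 9.55% of all genes. The ISRE core was found in 5 of 8 type I targets and in 6 of 7 type II GTPases, and the GAS core in 2 of 8 and 3 of 7. Letters matching either core are shared by many factors, and matches are given as descriptions of the sequence. The promoters of 6 genes are printed below over the 200 bases before the start, 5′ to 3′ in the direction of transcription, with matches in capitals. The first 4 belong to the 3 Ifit genes with an ISRE match and to Rsad2, and the last 2 to GTPases, for comparison.
Ifit1 promoter: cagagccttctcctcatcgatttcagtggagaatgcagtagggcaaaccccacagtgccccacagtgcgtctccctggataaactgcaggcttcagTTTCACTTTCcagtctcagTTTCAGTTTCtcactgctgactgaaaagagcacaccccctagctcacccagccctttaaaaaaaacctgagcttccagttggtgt
Ifit3 promoter: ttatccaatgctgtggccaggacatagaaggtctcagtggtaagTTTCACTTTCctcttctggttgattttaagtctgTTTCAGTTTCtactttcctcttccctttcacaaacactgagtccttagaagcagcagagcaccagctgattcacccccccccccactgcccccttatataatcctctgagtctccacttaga
Ifit3b promoter: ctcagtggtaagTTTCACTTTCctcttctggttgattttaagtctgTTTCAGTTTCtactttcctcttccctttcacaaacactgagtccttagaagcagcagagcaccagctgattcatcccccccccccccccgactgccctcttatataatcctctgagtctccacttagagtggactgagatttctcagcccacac
Rsad2 promoter: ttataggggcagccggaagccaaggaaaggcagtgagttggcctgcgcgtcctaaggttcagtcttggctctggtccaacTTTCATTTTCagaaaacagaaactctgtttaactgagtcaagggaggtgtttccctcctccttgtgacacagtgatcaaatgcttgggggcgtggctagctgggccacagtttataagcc
Igtp promoter: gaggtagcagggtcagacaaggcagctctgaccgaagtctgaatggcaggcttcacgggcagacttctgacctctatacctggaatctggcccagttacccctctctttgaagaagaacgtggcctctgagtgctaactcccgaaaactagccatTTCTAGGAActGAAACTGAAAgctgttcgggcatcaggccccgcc
Irgm1 promoter: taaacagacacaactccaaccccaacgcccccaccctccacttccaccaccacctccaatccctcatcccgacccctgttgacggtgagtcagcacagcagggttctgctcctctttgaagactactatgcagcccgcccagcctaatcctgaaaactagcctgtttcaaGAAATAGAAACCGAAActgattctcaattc
The Ifit1 window is chr19:34640689-34640888 on the plus strand and holds ISRE cores from 104 to 95 and from 85 to 76 bases before the start. Ifit3 (chr19:34583329-34583528, plus strand) and its near copy Ifit3b (chr19:34607757-34607956, plus strand) hold the same pair of cores, the first 156 and 188 bases before their starts. Rsad2 (chr12:26456453-26456652, minus strand) holds a single core from 120 to 111 bases before the start. Igtp (chr11:58199356-58199555, plus strand) holds a GAS core from 45 to 37 bases and an ISRE core from 34 to 25 bases before the start. Irgm1 (chr11:48871421-48871620, minus strand) holds overlapping ISRE cores from 30 to 15 bases before the start. The listed promoters of Oasl1, Oasl2, Cmpk2 and Ifi47 held neither core. Ifit2 held a GAS core and no ISRE core in its listed promoters. The printed Ifit genes and Rsad2 were picked for their matches. The ISRE core was present in 3 of 8 listed members called higher in MDSC by the test below, and in 17 of 25 not called.

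Total counts were between 28844660 and 38222998 per library. Levels are given as CPM, the counts scaled to a common library size, with TMM factors (trimmed mean of M-values) computed over all 10 libraries. A log2 difference of 1 is a doubling. Ptpn11, the targeted gene, had 113 and 99.2 CPM in Shp2f/f MDSC and 94.8 and 79.7 CPM in Shp2f/fLysMcre MDSC. In TAM it was at 121 to 125 CPM and at 50.9 to 54.2 CPM. Lyz2, which the Cre insertion interrupts, was at 8970 and 9460 CPM and at 43.3 and 47.1 CPM in MDSC, and at 3440 to 3670 CPM and 9.38 to 12.6 CPM in TAM. Lyz2 thus separated the genotypes in every library, as the labels give them, while Ptpn11 separated them by far less in MDSC than in TAM. The 7 neutrophil markers summed to 8520 to 8630 CPM of the total count in MDSC Shp2f/f and 296 to 305 in TAM Shp2f/f. The 8 macrophage markers summed to 2400 to 2480 and 9110 to 9370, and the 5 monocyte markers to 7230 to 7300 and 1620 to 1700. In MDSC Shp2f/f most of the neutrophil sum came from S100a8 (3260 and 3400 CPM) and S100a9 (3220 and 3210 CPM), with Ly6g at 11.9 and 8.92 CPM. The share of monocytes in the MDSC libraries was not tested. A pair of libraries stood apart in markers of other cells. MDSC Shp2f/fLysMcre replicate 2 had 491 CPM over 5 fibroblast and tumor genes against 6.85 to 25.2 in the other MDSC libraries. TAM Shp2f/f replicate 3 had 6690 CPM over 5 pancreatic islet genes. The islet sum was 1290 and 846 CPM in the other TAM Shp2f/f libraries and 73.8, 5.83 and 5.75 CPM in TAM Shp2f/fLysMcre. The islet signal therefore also separated the genotypes, and leaving out replicate 3 does not remove that. Counts of members called within each cell type are therefore also given without MDSC Shp2f/fLysMcre replicate 2 and without TAM Shp2f/f replicate 3. Counts of the pathway lists and values of the markers are not given without them.

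**Figure D1:**
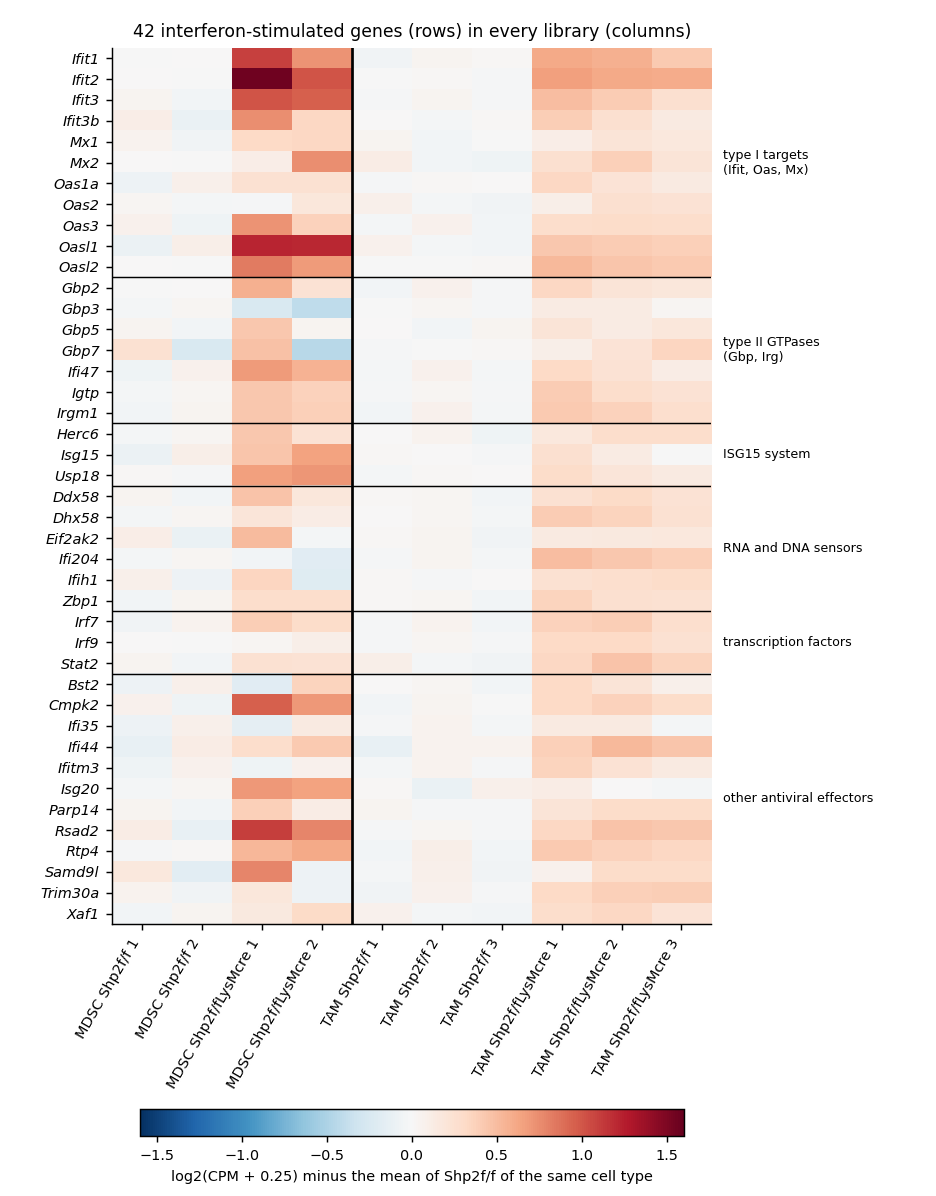
Each row is a gene, each column a library, and color is log2(CPM + 0.25) minus the mean of Shp2f/f of the same cell type (red higher, blue lower). Ifit2, Oasl1, Ifit1 and Rsad2 are among the darkest rows in the MDSC Shp2f/fLysMcre libraries, whereas the 3 TAM Shp2f/fLysMcre libraries are pale red in nearly every row.

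Whether the interferon-stimulated genes differed in level between Shp2f/f and Shp2f/fLysMcre was examined first in MDSC. With edgeR's quasi-likelihood test and Benjamini-Hochberg adjustment over all 14806 tested genes, 10 of the 42 members were higher in Shp2f/fLysMcre MDSC at an adjusted p under 0.05 and 0 were lower. At an unadjusted p under 0.05 the counts were 20 and 1, and the DESeq2 Wald test called 13 and 0. Over all tested genes, edgeR called 3.76% higher and 0.52% lower, and the DESeq2 Wald test 6.54% and 1.95%. The median log2 difference of the members was 0.34, against -0.01 over all tested genes. Both Shp2f/fLysMcre libraries lay above both Shp2f/f libraries for 31 members (24.9% of all tested genes) and below them for 2 members, Gbp3 and Ifi204 (24% of all tested genes), and the genotypes overlapped for 9.

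The type I targets contained 5 of the 10 called genes. Ifit2, a tetratricopeptide repeat protein that binds RNA and restrains viral translation, was at 8.13 and 8 CPM in Shp2f/f MDSC and at 24.3 and 16.5 CPM in Shp2f/fLysMcre MDSC, which was 2.52-fold (log2 difference 1.33, SE 0.216, adjusted p = 0.036 by edgeR). Both Shp2f/fLysMcre libraries were above both controls, and they differed from each other more than the controls did. Oasl1, a 2′-5′-oligoadenylate synthetase-like protein without synthetase activity that limits translation of Irf7, was at 12.1 and 13.9 CPM against 30.5 and 30.2 CPM (2.32-fold, log2 difference 1.22, SE 0.124, adjusted p = 0.0183). It had the smallest adjusted p of the members. Ifit3, a partner of IFIT1 that strengthens its RNA binding, was at 6.51 and 6.09 CPM against 12.9 and 12.5 CPM (2.01-fold, SE 0.144 on the log2 scale, adjusted p = 0.0279). Ifit1, which recognizes RNA caps lacking methylation, was at 10.1 and 10.2 CPM against 22 and 16.9 CPM (1.92-fold, log2 difference 0.94, SE 0.172, adjusted p = 0.0489), close to the threshold. With the size factors of DESeq2 in place of TMM, Ifit1 was no longer called.

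Oasl2, a relative of Oasl1 that keeps synthetase activity in the mouse, completed the called type I targets, at 120 and 119 CPM against 213 and 191 CPM (1.68-fold, adjusted p = 0.0349 by edgeR). The other 6 type I targets were not called. Ifit3b, the near copy of Ifit3, was at 2.41 and 2.05 CPM against 3.9 and 2.86 CPM (log2 difference 0.59, SE 0.268, adjusted p = 0.318), and reads shared with Ifit3 make both counts uncertain because the handling of reads with several matches was not stated. The synthetases Oas1a, Oas2 and Oas3, which make the activator of RNase L, had log2 differences of 0.24, 0.08 and 0.55. The dynamin-like GTPases Mx1 and Mx2 had 0.32 and 0.46. The median over the 11 type I targets was 0.59.

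None of the 7 type II GTPases was called in MDSC (6 of 7 estimates were above 0), and their median log2 difference was 0.39 (0.19 without MDSC Shp2f/fLysMcre replicate 1). Ifi47, an IRG family GTPase, came nearest, at 35.7 and 39.5 CPM against 60.2 and 55.2 CPM (log2 difference 0.61, SE 0.118, adjusted p = 0.0556). Irgm1, which guards membranes against the effector GTPases, was at 57 and 60.8 CPM against 79.6 and 76.6 CPM (adjusted p = 0.115), and Igtp was at 31.3 and 32.8 CPM against 43.3 and 41.3 CPM (adjusted p = 0.125). The genotypes did not overlap for these 3 genes. Gbp2, a guanylate-binding protein that attacks pathogen vacuoles, had a log2 difference of 0.40, Gbp5, which promotes inflammasome assembly, 0.24, and Gbp7, whose libraries spread most widely, 0.06. Gbp3 pointed the other way, at 62.1 and 64.4 CPM against 53.3 and 47.8 CPM (log2 difference -0.33, SE 0.113, adjusted p = 0.201). The difference between the class of type I targets and the class of type II GTPases was not tested. Without MDSC Shp2f/fLysMcre replicate 2, 7 of 11 type I targets and 6 of 7 type II GTPases were called, with medians of 0.81 and 0.44.

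The other called members in MDSC were 4 antiviral effectors and 1 gene of the ISG15 system. Rsad2 (viperin), which makes a chain-terminating nucleotide, was at 22.2 and 18.8 CPM against 44.1 and 35.2 CPM (1.93-fold, log2 difference 0.95, SE 0.166, adjusted p = 0.043 by edgeR). Its genomic neighbor Cmpk2, a mitochondrial nucleotide kinase, was at 30.9 and 28.3 CPM against 57.5 and 48 CPM (1.78-fold, log2 difference 0.83, SE 0.139, adjusted p = 0.0381). Usp18, the protease that removes ISG15 from proteins and restrains IFNAR2 signaling, was at 17.7 and 17.3 CPM against 27.8 and 28.8 CPM (adjusted p = 0.0335). Isg20, an exonuclease, was at 21.9 and 22.8 CPM against 36.2 and 35.2 CPM (adjusted p = 0.0353). Rtp4, a receptor-transporting protein induced by interferon, was at 32.7 and 33.4 CPM against 48 and 50.5 CPM (adjusted p = 0.0462). In each of the 10 called genes both Shp2f/fLysMcre libraries lay above both controls.

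Among the remaining members Isg15, the ubiquitin-like modifier, had a log2 difference of 0.55 (adjusted p = 0.0901) in MDSC and Herc6, its ligase, 0.33. None of the sensors Ddx58 (RIG-I), Ifih1 (MDA5), Dhx58 (LGP2), Eif2ak2 (PKR), Zbp1 and Ifi204 was called, with log2 differences between -0.12 and 0.33. None of the transcription factors was called either, with 0.35 for Irf7, 0.23 for Stat2 and 0.06 for Irf9. Ifitm3, a membrane protein that blocks viral fusion, was at 993 and 1090 CPM in both genotypes (log2 difference 0.00, SE 0.123).

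These 10 calls rested on few libraries. Without either of the MDSC Shp2f/f libraries no member was called by edgeR (lowest adjusted p 0.59 and 0.673), with 10 and 12 members higher at an unadjusted p under 0.05, and the spread then came from the Shp2f/fLysMcre pair alone. With a weak filter on low counts, which left 23143 genes in the test, 0 members were called (lowest adjusted p 0.0861), with 18 higher and 1 lower at an unadjusted p under 0.05. Without MDSC Shp2f/fLysMcre replicate 2, the library with fibroblast and tumor transcripts, 26 members were called higher and 0 lower, while 12.7% of all 15143 tested genes were then called higher and 5.34% lower. Over all genes, the weak filter left 2 called higher and 1 lower, and leaving out either Shp2f/f library left 0 higher and 1 lower. Across all alternatives tried the estimates of the 10 genes stayed above 0, between 0.54 for Rtp4 and 1.59 for Ifit2.

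**Figure D2:**
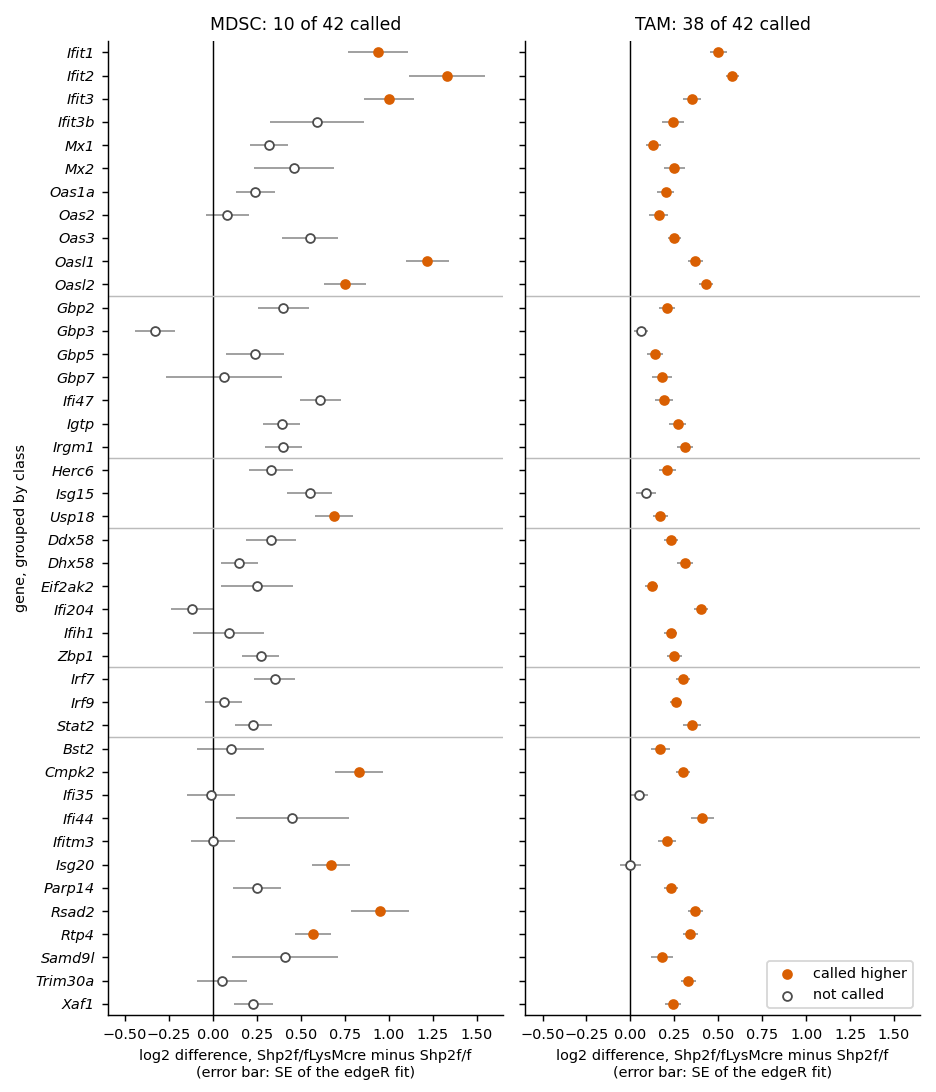
Log2 difference between Shp2f/fLysMcre and Shp2f/f for each gene (point) with the SE of the edgeR fit (bar), in MDSC and TAM, with filled points called higher at an adjusted p under 0.05. In MDSC 10 of 42 points are filled and the bars are wide, and in TAM 38 of 42 are filled and no difference exceeds 0.58.

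In TAM the log2 differences of the members covered a narrower range than in MDSC, 0.00 to 0.58 against -0.33 to 1.33. Their median was smaller, but the medians of the transcription factors (0.30 against 0.23) and of the sensors (0.24 against 0.20) were larger. Of the 42 members 38 were called higher in Shp2f/fLysMcre and 0 lower, with 38 and 0 at an unadjusted p under 0.05 and 38 and 0 by the DESeq2 Wald test. TAM had many differences genome-wide, with 23.9% of 14446 tested genes called higher and 26.3% called lower by edgeR. The DESeq2 Wald test called 22.6% higher and 22.2% lower. The median log2 difference of the members was 0.24, against -0.01 over all tested genes. All 3 Shp2f/fLysMcre libraries lay above all 3 controls for 37 members (30.7% of all tested genes) and below them for 0 (27.2% of all tested genes). TAM Shp2f/fLysMcre libraries had lower scaling factors (0.917 to 0.944) than the controls (1.004 to 1.023), and scaling by total counts alone moved the median of all tested genes to -0.11. Under that scaling 24 members were still called higher and 0 lower, including 6 of the 11 type I targets and 3 of the 7 type II GTPases. Of the 42 estimates 38 were above 0, while 16.2% of all tested genes were called higher and 36.2% lower.

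All 11 type I targets were called in TAM. The calls of Mx1 and Oas2 were the least stable of the class, being kept in 7 and 6 of 13 alternatives. Ifit2 again had the largest difference, at 207, 211 and 206 CPM in Shp2f/f and 327, 317 and 314 CPM in Shp2f/fLysMcre TAM (log2 difference 0.58, SE 0.0364, adjusted p = 3.17e-07 by edgeR). Ifit1 was at 102, 109 and 107 CPM against 162, 157 and 142 CPM (1.41-fold, log2 difference 0.50, SE 0.0485, adjusted p = 8.53e-06). Oasl2 was at 208, 207 and 211 CPM against 300, 285 and 280 CPM (1.35-fold, log2 difference 0.43, SE 0.0399, adjusted p = 5.75e-06). For these 3 genes the lowest Shp2f/fLysMcre library was well above the highest control. Oasl1 was at 129, 121 and 120 CPM against 166, 163 and 161 CPM (1.29-fold, log2 difference 0.37, SE 0.0415, adjusted p = 2.35e-05). Ifit3 was at 119, 125 and 119 CPM against 170, 160 and 145 CPM (log2 difference 0.35, SE 0.053, adjusted p = 0.000213), and Ifit3b was at 22, 21.5 and 22.2 CPM against 28.9, 26.1 and 24.3 CPM (log2 difference 0.24, SE 0.063, adjusted p = 0.00856). Among the type I targets the smallest difference was that of Mx1, at 208, 196 and 200 CPM against 216, 233 and 227 CPM (log2 difference 0.13, adjusted p = 0.0297), a call that was lost under total-count scaling and without any 1 of 4 of the 6 libraries. The median over the class was 0.25, and 0.15 under total-count scaling.

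Of the type II GTPases 6 of 7 were called in TAM, with a median of 0.19, and 0.09 under total-count scaling. Irgm1 was at 107, 115 and 108 CPM against 147, 142 and 132 CPM (log2 difference 0.31, SE 0.045, adjusted p = 0.000159 by edgeR). Igtp was at 53.1, 55 and 53.3 CPM against 71.2, 65.4 and 63 CPM (log2 difference 0.27, adjusted p = 0.000748), and Gbp2 had a log2 difference of 0.21. The genotypes did not overlap for any of these 3 genes. Ifi47, Gbp7 and Gbp5 had log2 differences of 0.19, 0.18 and 0.14, and the call of Gbp7 was kept in 7 of 13 alternatives. Gbp3, at 61.9, 63.7 and 61.4 CPM against 68, 68.2 and 63.6 CPM, was not called (log2 difference 0.06, adjusted p = 0.246).

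In the other classes Rsad2 was at 428, 443 and 428 CPM against 543, 592 and 583 CPM in TAM (1.29-fold, log2 difference 0.37, SE 0.0408, adjusted p = 2.22e-05 by edgeR). Cmpk2 was at 104, 111 and 107 CPM against 134, 139 and 132 CPM (1.23-fold, log2 difference 0.30, SE 0.038, adjusted p = 6.57e-05). Ifi44, a cytoplasmic protein of uncertain function, was at 16.4, 18.7 and 18.7 CPM against 23.3, 25.8 and 24.4 CPM (1.33-fold, log2 difference 0.41, SE 0.0635, adjusted p = 0.00025). In all 3 genes every Shp2f/fLysMcre library exceeded every control. Ifi204, a DNA-binding sensor of the IFI200 family, was at 322, 335 and 318 CPM against 459, 439 and 425 CPM (1.32-fold, log2 difference 0.40, SE 0.0404, adjusted p = 1.01e-05).

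The 6 sensors were all called in TAM, with log2 differences between 0.12 for Eif2ak2 and 0.40 for Ifi204. The 3 transcription factors were called as well, with 0.35 for Stat2, 0.30 for Irf7, the master factor of the interferon-α response, and 0.26 for Irf9. The 4 members that were not called were Isg15 (0.09), Isg20 (0.00), Ifi35 (0.05) and Gbp3. Samd9l was called at 0.18 (adjusted p = 0.0291), although its lowest Shp2f/fLysMcre library, at 125 CPM, was below its highest control, at 127 CPM, and its call was kept in 7 of 13 alternatives. Without TAM Shp2f/f replicate 3, the library with the most islet transcripts, 34 members were called higher and 0 lower (21.6% and 22% of all tested genes). The remaining Shp2f/f libraries still had more islet transcripts (1290 and 846 CPM) than any Shp2f/fLysMcre library (73.8 CPM at most).

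**Figure D3:**
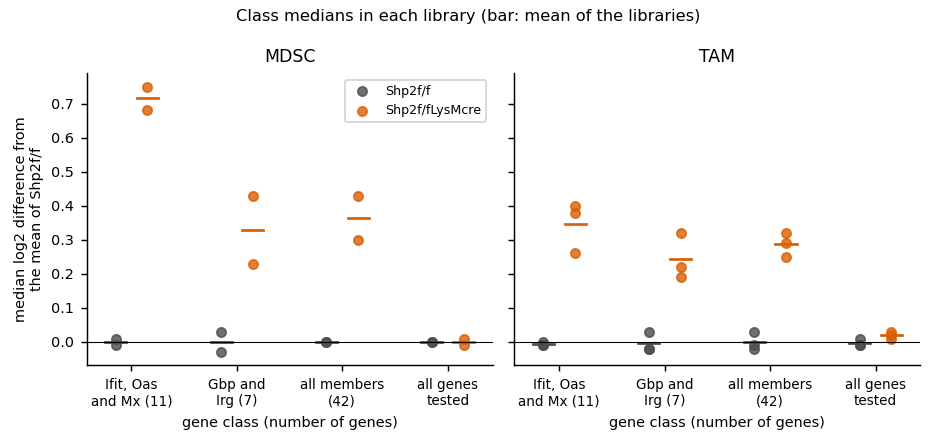
Median log2 difference from the Shp2f/f mean over the genes of a class, in each library (point) with the mean of the libraries (line). In MDSC the Ifit, Oas and Mx genes sit at 0.75 and 0.68 and the Gbp and Irg genes at 0.43 and 0.23 in the Shp2f/fLysMcre libraries, and in TAM at 0.26 to 0.40 and 0.19 to 0.32, with all tested genes near 0.

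Between the cell types, 9 members were called higher in both, namely Ifit1, Ifit2, Ifit3, Oasl1, Oasl2, Rsad2, Cmpk2, Rtp4 and Usp18. Another 29 were called in TAM alone, Isg20 in MDSC alone, and Isg15, Ifi35 and Gbp3 in neither. Of all tested genes 3.76% were called higher in MDSC and 23.9% in TAM, and the share called in both was not computed. Because MDSC had fewer and more variable libraries, a call in one cell type alone does not show a difference, and the genotype effects were compared directly as an interaction over all 10 libraries. The effect was smaller in TAM than in MDSC for 10 members and larger for 3 (edgeR, adjusted p under 0.05), while 12.7% of the 16581 tested genes were called in the first direction and 12.2% in the second. These counts moved with scaling and with single MDSC libraries. Total-count scaling gave 16 smaller in TAM, with 18.9% of all tested genes called in that direction. A fit without 1 MDSC library leaves 1 library in a group, so only effect sizes are given for it here. The median interaction over the type I targets was -0.29 with all libraries. It was -0.19 without MDSC Shp2f/f replicate 2 and -0.43 without MDSC Shp2f/fLysMcre replicate 2, the library with fibroblast and tumor transcripts. Over the type II GTPases the median was -0.07. It was 0.02 without MDSC Shp2f/fLysMcre replicate 1 and -0.23 without MDSC Shp2f/fLysMcre replicate 2. The members called smaller in TAM were Oasl1, Ifit2, Isg20, Ifit3, Rsad2, Cmpk2, Usp18, Isg15, Ifi47 and Oasl2, of which 4 were type I targets. Oasl1 differed most (log2 difference of the effects -0.82, SE 0.0953, adjusted p = 0.000263), followed by Ifit2 (-0.72, SE 0.181, adjusted p = 0.0175) and Isg20 (-0.65, SE 0.102, adjusted p = 0.0016).

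The 3 members with a larger effect in TAM were Ifi204 (0.55, SE 0.0907, adjusted p = 0.00203 by edgeR), Gbp3 (0.42, SE 0.0884, adjusted p = 0.00757) and Irf9 (0.23, SE 0.0749, adjusted p = 0.0468). For Ifi204 and Gbp3 the estimate was below 0 in MDSC and above 0 in TAM. In MDSC Ifi204 was at 197 and 207 CPM against 196 and 178 CPM, so the genotypes were barely apart (log2 difference -0.12, SE 0.119, adjusted p = 0.687 by edgeR). The MDSC libraries were more variable than the TAM libraries, and limma voom with a separate weight for each cell type called 8 of these 13 members, 6 lower and 2 higher, leaving out Irf9, Oasl2, Isg15, Ifit3 and Ifi47. Over all genes that fit called 9.18% higher and 7.73% lower.

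**Figure D4:**
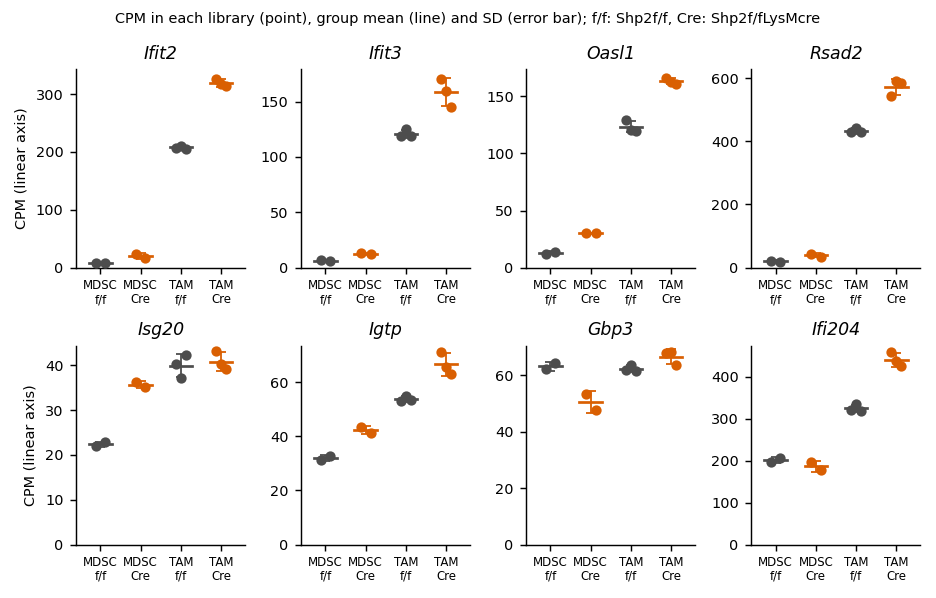
CPM in every library (point) with the group mean (line) and SD (error bar) on linear axes from 0, for 8 members. Ifit2, Ifit3, Oasl1 and Rsad2 lie higher in Shp2f/fLysMcre than in Shp2f/f in both cell types and far higher in TAM than in MDSC, the genotypes of Isg20 separate in MDSC and overlap in TAM, and the MDSC Shp2f/fLysMcre libraries of Gbp3 and Ifi204 lie below the controls.

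The cell types differed more than the genotypes did. In Shp2f/f mice 36 members were called higher in TAM than in MDSC and 3 lower, while 40% of the 15659 tested genes were called higher and 38.8% lower. The median log2 difference was 2.69 over the type I targets, 1.11 over the type II GTPases and 0.01 over all tested genes. The largest differences were those of Ifi44 (log2 difference 4.77, SE 0.139, adjusted p = 1.41e-09 by edgeR), Ifit2 (4.69, SE 0.0561, adjusted p = 1.03e-11) and Rsad2 (4.40, SE 0.0792, adjusted p = 6.59e-11). Ifi44 rose from 0.581 and 0.722 CPM, which were 20 and 25 counts, to the levels given above, and Ifit2 was 25.8-fold higher in TAM. These cells came from different organs and were purified in different ways, so cell type, tissue and purification cannot be told apart.

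Ifitm3, Irf9 and Oas2 were the members called lower in TAM. Ifitm3 was at 993 and 1090 CPM in MDSC and 490, 522 and 496 CPM in TAM Shp2f/f (log2 difference -1.05, SE 0.0517, adjusted p = 5.94e-08 by edgeR). Irf9 was at 155 and 153 CPM against 85.6, 88.2 and 85.3 CPM (-0.84, SE 0.0411, adjusted p = 5.63e-08), and Oas2 at 222 and 214 CPM against 181, 167 and 165 CPM (-0.36, SE 0.054, adjusted p = 0.000204). For all 3 genes the cell types did not overlap. Gbp3 (-0.02), Trim30a (-0.06) and Ifi35 (0.11) were not called.

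The order of levels within a cell type was compared per kilobase of annotated exon. Ifitm3 led in both, with 1530 CPM per kb (SD 96.5, n = 2) in MDSC and 741 (SD 25.1, n = 3) in TAM Shp2f/f. In MDSC it was followed by Bst2 (tetherin, 71.8, SD 5.92), Ifi204 (56.7, SD 1.95), Trim30a (51.5, SD 2.71) and Oas2 (49, SD 1.19), of which Trim30a and Oas2 did not differ beyond their spread. In TAM it was followed by Bst2 (243, SD 6.79), Isg15 (226, SD 2.95), Irf7 (166, SD 6.07) and Rsad2 (99.9, SD 1.94). Ifit2 was 40th of 42 in MDSC, at 2.05 CPM per kb (SD 0.0246), and 11th in TAM, at 53 (SD 0.695). Rsad2 was 34th in MDSC, at 4.72 (SD 0.559), and Ifi44 was last in both.

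**Figure D5:**
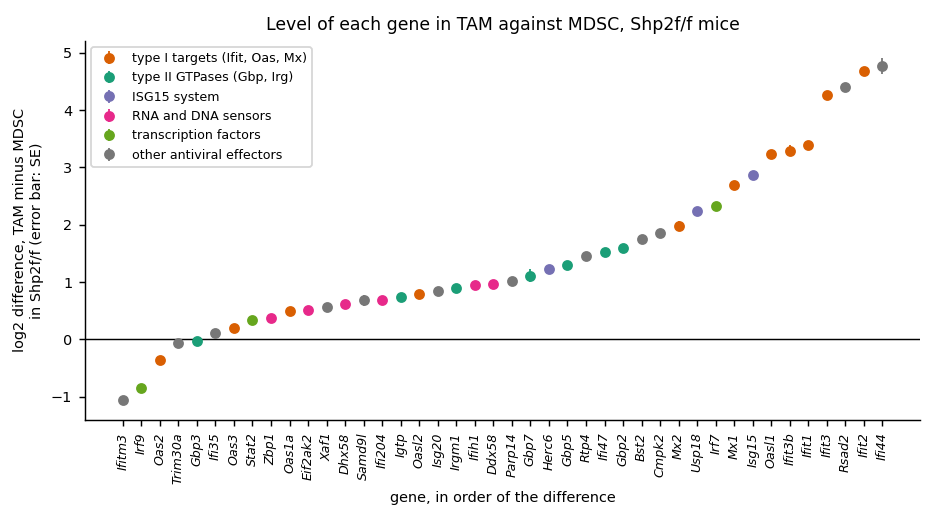
Log2 difference between TAM and MDSC of Shp2f/f mice (point, with the SE of the edgeR fit) for each member, in order and colored by class. The differences run from -1.05 for Ifitm3 to 4.77 for Ifi44, and the Ifit genes, Oasl1 and Mx1 lie toward the upper end while the Gbp and Irg genes lie between -0.02 and 1.59.

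The rest of the pathway was examined with lists of ligands, receptors, kinases, factors, inhibitors and other targets. Of 19 genes for type I and type III ligands, 1 passed the filter on low counts in TAM and 0 in MDSC. Ifnb1, which encodes interferon-β, was at 0.622, 0.495 and 0.791 CPM in TAM Shp2f/f and 0.938, 0.832 and 0.846 CPM in TAM Shp2f/fLysMcre, and the difference was not called (log2 difference 0.42, SE 0.263, adjusted p = 0.214 by edgeR). In MDSC Ifnb1 was at 0 in 3 libraries and at 0.0251 CPM in 1, under the 3 counts (0.0821 to 0.0902 CPM) that a count of 0 allows. Ifna4 was at 0.119 CPM at most, and the other ligand genes at 0.0546 CPM or lower. Ifng, which encodes interferon-γ, was at 0.385, 0.365 and 0.327 CPM in TAM Shp2f/f and 0.194, 0.238 and 0.11 CPM in TAM Shp2f/fLysMcre (log2 difference -0.98, SE 0.382, adjusted p = 0.0515), and at 0.163 to 0.349 CPM in MDSC. The 10 markers of NK and T cells, which are known sources of interferon-γ, were all called lower in Shp2f/fLysMcre TAM, their sum being 21 to 22.3 CPM against 6.25 to 7.25 CPM. The 6 markers of plasmacytoid dendritic cells summed to 2.17 to 3.56 CPM against 1.69 to 2.1 CPM in TAM, and 3 of the 4 that were tested, Siglech, Ccr9 and Pacsin1, were called lower. The part of these cells in the members' levels was not tested.

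Receptors and signaling genes were mostly called in TAM alone. Of 6 receptor genes 4 were called higher in TAM, Ifnar2 (log2 difference 0.34), Ifngr1 (0.34), Il10rb (0.34) and Ifnar1 (0.19), and 0 lower. In MDSC the only receptor called was Ifnlr1, the chain specific to type III interferons, at 5.52 and 3.9 CPM against 14.9 and 12.6 CPM (log2 difference 1.54, SE 0.224, adjusted p = 0.029 by edgeR). The kinases Jak1, Jak2 and Tyk2 were all called higher in TAM, at log2 differences of 0.19 to 0.25, and none was called in MDSC. Of 9 interferon regulatory factors and their cofactors 6 were called higher in TAM and 1 lower. Irf8, which specifies monocytes and dendritic cells, rose most (log2 difference 0.70), and Irf2bp1, a corepressor of IRF2, fell by 0.31 on the log2 scale. Of 8 tested inhibitors 7 were called higher in TAM, led by Socs3 (0.79), which blocks cytokine receptors, and Ptpn1 (0.39).

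Sensors and adaptors that induce interferon were called higher in TAM for 9 of 12 genes and lower for 1. They were led by Tlr7, an endosomal receptor for RNA, at 103, 118 and 110 CPM against 216, 237 and 233 CPM (log2 difference 1.02, SE 0.0515, adjusted p = 7.68e-08 by edgeR). Ikbke, a kinase of IRF3 and IRF7, had 0.85 and Unc93b1, the chaperone of the endosomal receptors, 0.62. None of the 12 was called in MDSC.

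Further interferon-inducible genes outside the set were listed as GTPases, type I targets and type II targets. Of 11 tested GTPases 9 were called higher in TAM, led by Iigp1 (0.60) and Irgm2 (0.47), and 0 of 10 in MDSC, where Iigp1 was at 0.261 and 0.346 CPM against 1.06 and 1.73 CPM (adjusted p = 0.0523). Igtp and Irgm2 share 162 bases of exon on the same strand, so reads there are uncertain. Of 40 tested type I targets 35 were called higher and 2 lower in TAM, and 2 higher in MDSC, Oas1g at 8.74 and 9.96 CPM against 19.6 and 21.6 CPM (log2 difference 1.13, adjusted p = 0.0206) and Ifi213 (0.70). Of 8 tested type II targets 4 were called higher in TAM, Nos2 (1.69), Cd274 (0.70), Fcgr1 (0.33) and Irf1 (0.27).

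In MDSC the type II targets called were the chemokines Cxcl9 and Cxcl10. Cxcl9 was at 0.9 and 1.04 CPM against 5.2 and 6.64 CPM (log2 difference 2.60, SE 0.251, adjusted p = 0.0182 by edgeR), and Cxcl10 at 3.4 and 4.04 CPM against 10.7 and 14.6 CPM (1.76, SE 0.216, adjusted p = 0.0208). In TAM, where both were far more abundant, Cxcl9 was at 26.1 to 28 CPM against 25.7 to 27.3 CPM and Cxcl10 at 237 to 249 CPM against 241 to 264 CPM, and neither was called. These MDSC calls, like those of the members, were lost without either MDSC Shp2f/f library.

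Marker sums of several cell types also differed by genotype. In Shp2f/fLysMcre MDSC the neutrophil sum was 20300 to 22700 CPM against 8520 to 8630 CPM, with 3 of 7 markers called higher. S100a8, at 9040 and 7450 CPM against 3260 and 3400 CPM, and S100a9, at 10600 and 9300 CPM against 3220 and 3210 CPM, made up most of that sum. The other called marker was Ly6g, part of the surface phenotype by which the study defined these MDSC. It was at 33.2 and 29.8 CPM against 11.9 and 8.92 CPM (log2 difference 1.59, adjusted p = 0.0186 by edgeR). Csf3r, Cxcr2, Mmp8 and Retnlg were not called. The macrophage sum was 1890 to 2000 CPM against 2400 to 2480 CPM, but 0 of 8 markers were called and their median log2 difference was -0.08. The monocyte sum, 8970 and 7150 CPM against 7230 and 7300 CPM, did not separate the genotypes in MDSC, and 0 of 5 markers were called. Their log2 differences ran from -0.68 for F13a1 to 0.85 for Chil3, with a median of -0.51. The erythroid sum was 371 to 555 CPM against 199 to 228 CPM (4 of 6 called higher), the B cell sum 17.4 to 17.6 CPM against 27.5 to 36.6 CPM (2 of 5 called lower), and the sum of 5 proliferation genes 924 to 1050 CPM against 433 to 474 CPM (5 called higher). In TAM the macrophage sum was 12500 to 12900 CPM against 9110 to 9370 CPM (8 of 8 called higher) and the neutrophil sum 433 to 459 CPM against 296 to 305 CPM (5 of 6 tested called higher). The monocyte sum in TAM was 1940 to 1980 CPM against 1620 to 1700 CPM, with 3 of 5 markers called higher and Ccr2 called lower (log2 difference -0.45). The B cell sum was 9.64 to 10.5 CPM against 4.15 to 4.59 CPM in TAM, where Cd79b was the only 1 of 3 tested markers called. The proliferation sum was 308 to 321 CPM against 637 to 643 CPM (5 called lower), and the islet sum 5.75 to 73.8 CPM against 846 to 6690 CPM (5 called lower). Their part in the differences of the interferon-stimulated genes was not tested. In such bulk samples, a change in the number of cells of a type and a change in RNA per cell cannot be told apart.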

How the data were processed

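RNA sequencing was performed on MDSC (2 Shp2f/f and 2 Shp2f/fLysMcre libraries) and TAM (3 and 3). Per the labels, poly(A) RNA was made into stranded libraries and sequenced as paired-end reads of 42 nt. The authors trimmed, aligned and counted reads with tools that the submitters' processing notes name as cutadapt 2.5, STAR 2.7.3a and featureCounts of Subread 1.6.2 (GRCm38), and deposited raw counts per Ensembl gene. A second deposited table, normalized with DESeq2, was not used. Strand and multi-match settings are not given in the sources used here.

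Gene symbols came from GENCODE vM21, which held 55240 of 55421 identifiers (99.67%). The tests were run in edgeR 4.0.16 under R 4.3.3 (filterByExpr with a minimum count of 10, TMM scaling within each comparison, quasi-likelihood F test), Benjamini-Hochberg adjusted over all tested genes, and called at 0.05. Genotype was fitted within each cell type, and the interaction over all 10 libraries. The SE is the absolute log2 difference divided by the square root of F. Printed CPM were scaled over all 10 libraries, which left the median of all tested genes 0.01 to 0.03 higher in Shp2f/fLysMcre TAM than the Shp2f/f mean, so ratios of CPM slightly exceed fitted folds there. Class medians per library used log2(CPM + 0.25). A count of 0 allowed up to 3 counts (0.0785 to 0.104 CPM), which covers counting error only. Scripts were tested on simulated data.

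Genes were named by rule. All 42 members were accounted for. Values by library were given for the 6 largest called differences per cell type (mean of at least 5 CPM), and for Rsad2, Ifit2, Ifit3, Ifit3b and Cmpk2. They were given in part for the 3 largest per direction of the interaction and of TAM against MDSC, and for the interferon ligands. Values of further members were added for description after they were seen. Other pathway genes were named where called, at most 5 per list and cell type. A gene of these lists is not reported here. The members, classes and lists were chosen with earlier results of these data known. The study itself named Rsad2, Ifit2 and Cmpk2 in MDSC and Ifit2, Ifit3 and Cmpk2 in TAM. It also listed Rsad2 and Ifit1 among genes higher in TAM after deletion of either SHP-2 or PD-1. Alternatives were DESeq2 1.42.0 (Wald test, and its size factors in edgeR), total-count scaling, 2 filters, a threshold of 0.01, a replicate block, 1 fit of all libraries, limma 3.58.1 voom with weights per cell type, and leaving out each library.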

Additional observations from a re-analysis of the deposited data

Results flagged for a closer look

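Each group held 2 or 3 libraries, so no single library was tested as an outlier within its group. The genes below stood out because the genotype difference was not the same in the 2 cell types, by the interaction test of edgeR (adjusted p under 0.05). Values are the log2 genotype difference in TAM minus that in MDSC.

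Among the members with a smaller effect in TAM the values were -0.82 for Oasl1, -0.72 for Ifit2, -0.65 for Isg20, -0.62 for Ifit3, -0.55 for Rsad2, -0.50 for Cmpk2, -0.49 for Usp18, -0.43 for Isg15, -0.40 for Ifi47 and -0.29 for Oasl2. For the members with a larger effect in TAM they were 0.55 for Ifi204, 0.42 for Gbp3 and 0.23 for Irf9. Some of these calls were unstable. Those of Irf9 and Oasl2 were kept in 5 of 17 alternatives, that of Isg15 in 6 and that of Ifi47 in 9. The estimate for Irf9 ran from 0.06 to 0.27. Calls of the other members were kept in 14 to 17 alternatives. Cxcl9 and Cxcl10, which were called in MDSC and not in TAM, had -2.64 and -1.69. Oas1g had -0.59, Ifi213 -0.36 and Iigp1 -1.56, and these 3 were not called by voom with weights per cell type (adjusted p = 0.0613, 0.128 and 0.157).

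Among other genes of the pathway, the receptors had 0.47 for Ifnar1, 0.49 for Ifnar2, 0.71 for Ifngr1 and 0.47 for Il10rb, and the kinase Tyk2 had 0.49. Ifnlr1, the receptor called in MDSC, had -0.92 and did not pass the interaction test (adjusted p = 0.059). Among the regulatory factors the values were 1.07 for Irf8, 0.66 for Irf5, 0.60 for Irf2bp2, 0.56 for Irf2 and -0.38 for Irf2bp1. The inhibitors had 1.28 for Socs3, 0.82 for Ptpn1, 0.49 for Ptpn6 and 0.42 for Pias1, and -1.09 for Socs1 (adjusted p = 0.0407), a gene named after its values were seen and called in 5 of 17 alternatives. The inducers had 0.92 for Tlr7, 0.78 for Unc93b1, 0.74 for Myd88, 0.71 for Ticam1 and 0.44 for Ikbke. Further targets had 0.59 for Trim34a, 0.76 for Ifitm2, 0.50 for Trim21 and 0.76 for Fcgr1.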

How the results depend on the processing

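In MDSC the members called higher were 10, and 0 with the weak filter, 0 at an adjusted p under 0.01 (20 higher and 1 lower at an unadjusted p under 0.05), 22 in 1 fit of all 10 samples (1 lower) and 17 with the replicate block (1 lower). Leaving out 1 library gave 0 to 26 higher and 0 to 1 lower. The shares of all tested genes called higher were 3.76% in the main fit, 0.00864% with the weak filter and 0.0135% at an adjusted p under 0.01. They were 10.5% in the single fit and 12.6% with the block, with 5.59% and 5.43% called lower. The cause of these shifts was not tested. The weak filter tested 23143 genes instead of 14806, and the single fit used a shared estimate of spread for both cell types. In TAM 38 members were called higher (23.9% of all tested genes), 24 with total-count scaling (16.2%) and 36 with the block (22.6%). Without 1 library the count was 32 to 38 (20% to 23.5%). Between the cell types in Shp2f/f, 35 to 37 were called higher and 3 lower in every alternative.

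For the interaction, main counts were 3 higher and 10 lower. They were 5 higher with the DESeq2 Wald test (15% of all tested genes), 16 lower with total-count scaling (18.9%), and 4 lower at an adjusted p under 0.01 (6.59%). Voom gave 6 lower (7.73%), and the replicate block 0 higher (2.54%) and 1 lower (3.31%). Leaving out 1 library gave 1 to 5 higher and 4 to 14 lower.

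The median log2 difference of the type I targets in MDSC was 0.59, 0.63 with total-count scaling and 0.48 to 0.81 without 1 library, and that of the type II GTPases 0.39 and 0.19 to 0.44. In TAM they were 0.25 and 0.19, with 0.15 and 0.09 under total-count scaling, and without 1 library 0.25 to 0.31 and 0.17 to 0.23. For TAM against MDSC they were 2.69 (2.67 with total-count scaling, 2.64 to 2.75 without 1 library) and 1.11 (0.95 to 1.33). For the interaction, type I targets had -0.29, -0.26 with DESeq2 size factors, -0.46 with total-count scaling and -0.43 to -0.19 without 1 library. The type II GTPases had -0.07, -0.24 with total-count scaling and -0.23 to 0.02, changing sign without MDSC Shp2f/fLysMcre replicate 1 (0.02) and without no other library.

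Whether replicate numbers pair the libraries was not settled. Correlations of deviations between same-numbered libraries were 0.17 in the 2 MDSC pairs, which cannot decide it, because 2 libraries deviate from their mean in mirror image. In TAM they were -0.083, 0.064 and 0.034, against -0.11 to 0.068 for libraries with different numbers. The block of the interaction tied same-numbered libraries of a genotype across the cell types, where the correlations in Shp2f/f were 0.019 and 0.026. Block counts are therefore given here as counts only. No estimate of a called member or called pathway gene named here changed sign under any alternative. Markers of cell types were not followed across the alternatives.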
